A study of Caenorhabditis elegans with 2 samples.

Results

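The genes described here are the cuticle collagen genes of Caenorhabditis elegans, taken as the protein-coding genes of the WBcel235 annotation whose symbol is col- followed by a number, together with bli-1, bli-2, dpy-7, dpy-10, dpy-13, dpy-17, rol-6, sqt-1, sqt-3 and lon-3. The rule found 166 of the 19973 nuclear protein-coding genes, 156 of them named col. It goes by symbol alone, so some of these may not be typical cuticle collagens. The 166 genes were examined in a ChIP-seq experiment on NHR-179, a nuclear hormone receptor, in whole young adult hermaphrodites of strain OP465. The genotype of this strain is unc-119(tm4063) III with the transgene wgIs465. The transgene adds a C-terminal GFP-FLAG tag to the receptor, and the precipitation used an antibody against GFP. Animals were collected 64 hours after synchronization as L1 larvae starved after bleaching, and chromatin was sheared by sonication. The 2 biological replicates, numbered 2 and 3, make up 1 group that shares every allele and agent, so collagen genes could be compared with other genes and between replicates, but not between treatments. The tagged receptor comes from a transgene, and whole animals mix all tissues, so a peak cannot be placed in a cell type.

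The cuticle is the extracellular coat of the worm. The epidermis secretes it anew at each moult, and collagens are its main protein. A typical cuticle collagen is a short protein with a central domain of Gly-X-Y triplets, in which glycine recurs with a fixed period so that 3 chains can wind into a triple helix, and with cysteines beside that domain that link the chains. Different collagens build different layers and structures of the coat, and mutations in some give short (dpy), long (lon), rolling (rol), squat (sqt) or blistered (bli) animals. Nuclear hormone receptors are transcription factors that bind short DNA elements, and several of them act in the moulting cycle.

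The authors' files give peaks, each with a summit (the position of the highest point of the peak) and a signal value in the authors' units, but no read counts, so sequencing depth is unknown. The optimal list, made from both replicates, was the same as the 256 highest peaks by signal of the list called on pooled replicates. The pooled list held 9606 peaks, the replicate 2 list 12866 and the replicate 3 list 13745. The last 3 lists reach down to background regions, with q-values close to 1 at their lower end. Nearly all pooled peaks were 444 bp wide with the summit at the middle, so positions are coarse. A summit was linked to a gene when it lay inside the gene or within 1000 bp of one of its transcript starts.

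The sequences at 5 collagen summits are shown first because much of the account turns on where in the gene the summits lay. In 4 of them the summit lay in the stretch that encodes the Gly-X-Y repeat. The 120 bases around the summit are given on the strand of the gene, from 5′ to 3′, on ce11. Capitals mark the glycine codons of the reading frame. The col-138 window (chrIV:17183138-17183257, minus strand) and the col-184 window (chrX:13469960-13470079, plus strand) each held 13 glycine codons. The window of col-19 (chrX:422304-422423, plus strand), an adult-specific collagen, held the start of 14, the last cut off at the window's end. That of col-132 (chrIV:13089784-13089903, minus strand) held 13. The capitals that open the col-138 window end a codon that starts before it and is not counted. Most capital triplets are followed by 6 lower-case bases, the X and Y codons, before the next. In the window of col-85 (chrII:12494700-12494819, minus strand) the summit lay in an intron, and the capitals mark instead the bases of a tRNA-Ile gene (74 of the 120) that lies on the opposite strand.
col-138: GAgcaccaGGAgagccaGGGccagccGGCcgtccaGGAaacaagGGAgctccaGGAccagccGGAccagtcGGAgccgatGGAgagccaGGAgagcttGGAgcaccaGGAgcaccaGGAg
col-184: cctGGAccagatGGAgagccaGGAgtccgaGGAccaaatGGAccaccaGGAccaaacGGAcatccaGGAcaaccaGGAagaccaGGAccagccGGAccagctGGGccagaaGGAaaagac
col-19: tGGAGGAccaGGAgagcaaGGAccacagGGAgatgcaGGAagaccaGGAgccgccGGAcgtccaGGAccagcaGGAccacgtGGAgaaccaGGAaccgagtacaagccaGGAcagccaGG
col-132: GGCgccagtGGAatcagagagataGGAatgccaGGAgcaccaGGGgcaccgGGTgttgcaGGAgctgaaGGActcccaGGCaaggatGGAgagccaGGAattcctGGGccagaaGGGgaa
col-85: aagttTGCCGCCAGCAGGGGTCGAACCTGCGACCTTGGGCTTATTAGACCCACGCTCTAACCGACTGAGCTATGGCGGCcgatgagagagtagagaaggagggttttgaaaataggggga

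Collagen genes had summits more often than protein-coding genes as a whole in the pooled list and both replicate lists. In the pooled list 104 of 166 collagen genes had a summit (62.7%, exact Clopper-Pearson 95% interval 54.8 to 70.0%), against 31.2% of all protein-coding genes. In the replicate 2 list 105 had one (63.3%, 55.4 to 70.6%), against 38.8% of all genes. In the replicate 3 list 96 had one (57.8%, 49.9 to 65.4%), against 41.7% of all genes. The lower of the collagen shares in the 2 replicates, 57.8%, was above the higher share of all genes, 41.7%. A pooled summit with a summit within 100 bp in both replicate lists, called repeated here, was found at 46 collagen genes (27.7%, 21.1 to 35.2%), against 9.63% of all genes. The intervals treat genes as independent and cover counting error only.

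**Figure D1:**
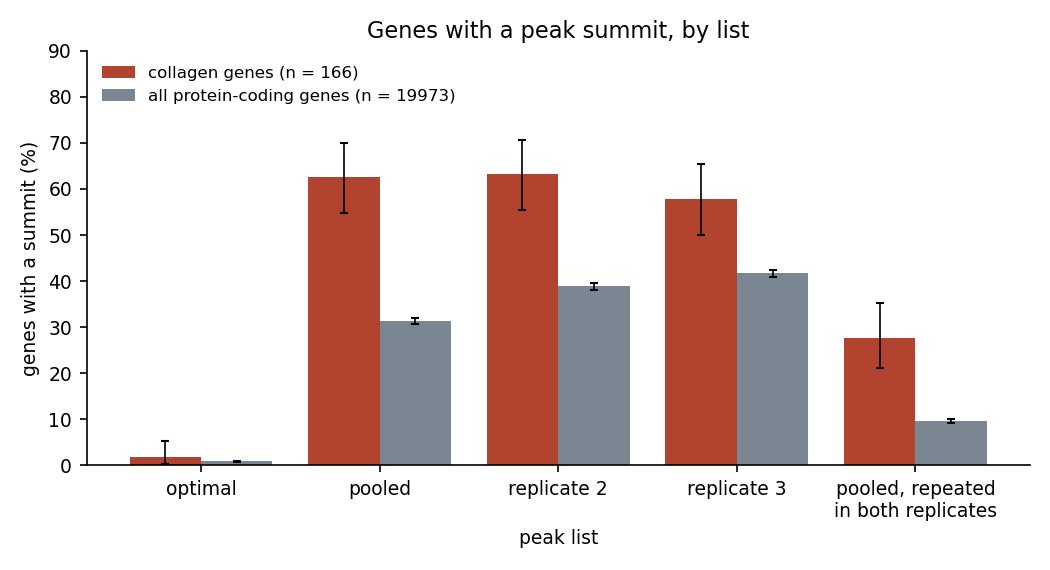
Percent of genes with at least 1 summit (y axis) in each peak list (x axis), for the 166 collagen genes and all 19973 protein-coding genes, with exact 95% intervals. The collagen bar is higher in every list, and in the optimal list its interval, 0.374 to 5.19%, reaches below the value of all genes.

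The highest peaks held few collagen genes. The optimal list had a summit at 3 of them, col-85, col-138 and col-184 (1.81%, 0.374 to 5.19%), against 0.846% of all genes, so the share was not distinguishable from that of all genes at this number of genes. Among the 1000 highest pooled peaks, 25 collagen genes had a summit (15.1%, 9.99 to 21.4%) and 4.07% of all genes did, and among the 2000 highest, 50 collagen genes (30.1%, 23.3 to 37.7%) and 8.12% of all genes. In the replicate 2 list the 1000 highest peaks reached 30 collagen genes (18.1%) and 4.05% of all genes. In the replicate 3 list they reached 18 (10.8%) and 4.11% of all genes. By the authors' q-value, 7 collagen genes had a pooled summit at 0.05 or less (4.22%), against 1.67% of all genes, namely col-33, col-85, col-91, col-122, col-138, col-181 and col-184. In the replicate 2 list 15 did (9.04%), against 1.89% of all genes, and in the replicate 3 list 9 did (5.42%), against 1.55% of all genes. col-138 and col-184 had such a summit in both replicate lists. col-44 did too, but at different places: the replicate 2 summit was in its own coding exon and the replicate 3 summit lay upstream, inside col-9.

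**Figure D2:**
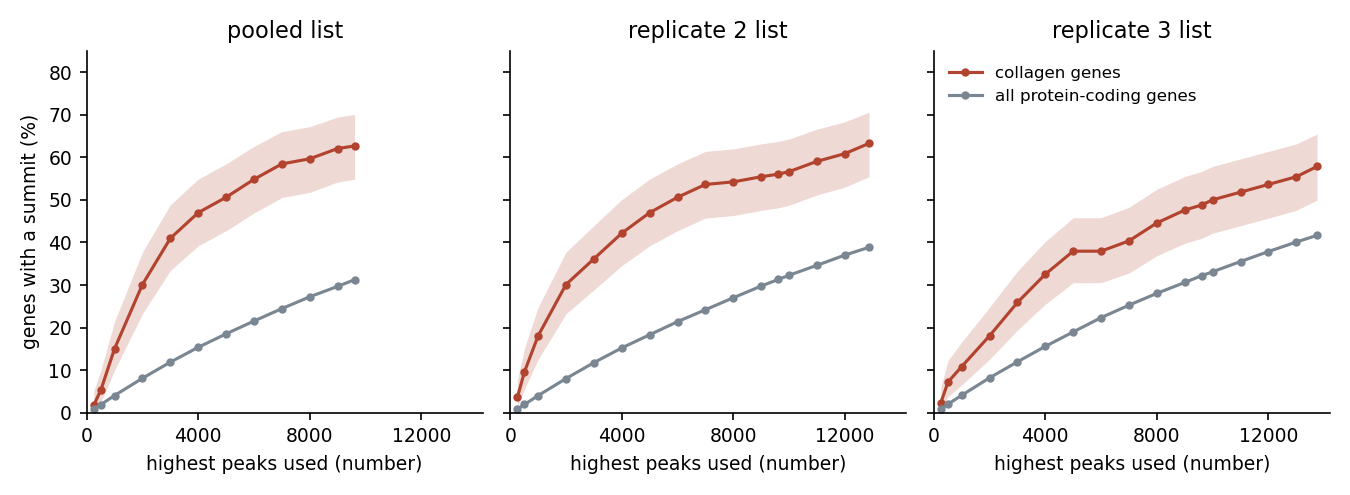
Percent of genes with a summit (y axis) among the highest peaks of each list, by the number of peaks used (x axis), with the exact 95% interval of the collagen genes shaded. In the pooled list the collagen line stands at 15.1% with 1000 peaks and 30.1% with 2000, above the line of all genes at 4.07% and 8.12%.

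Most collagen genes were reached by few summits and the same ones recurred only in part. Of the 166 genes, 62 had no pooled summit, 74 had 1, 21 had 2 and 9 had 3. Summits in both replicate lists were found at 73 genes (44.0%), against 23.6% of all genes. A further 32 had a summit in replicate 2 only, 23 in replicate 3 only and 38 in neither. Of the 144 collagen summits in replicate 2, 46 lay within 100 bp of a replicate 3 summit (31.9%, 24.4 to 40.2%), against 17.7% of all summits at protein-coding genes. Among genes with summits in both lists, the Spearman correlation of the highest signals was 0.216 for collagen genes and 0.283 for all genes, a description over genes that share both libraries. Over all lists 129 collagen genes had a summit somewhere and 37 had none. That total, the split by number of pooled summits and the genes with summits in 1 or neither replicate were not counted over all genes. Of all genes, 31.2% had a pooled summit, 38.8% one in the replicate 2 list and 41.7% one in the replicate 3 list. The 129 are therefore no result about collagen genes by themselves.

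The highest signal at each collagen gene was modest. Over the 104 genes with a pooled summit it ran from 30.4 to 93.5, with a median of 44.1, where the pooled list itself started at 30.1 and nuclear peaks reached 328.9. The 139 pooled summits of collagen genes had a median percentile of 72.3 within their list, so they sat in its upper part but mostly below the optimal peaks. In replicate 2 the highest signal per gene ran from 16.0 to 56.5 with a median of 25.8, and in replicate 3 from 15.7 to 47.4 with a median of 22.8. These units are the authors' and are not compared between lists.

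**Figure D3:**
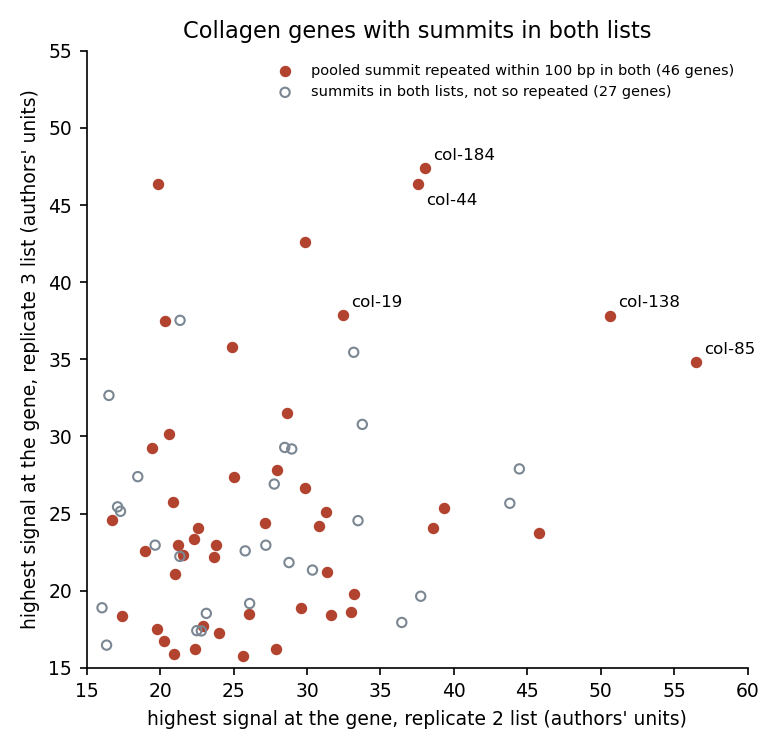
Highest signal at each of the 73 collagen genes with summits in both replicate lists, in replicate 2 (x axis) and replicate 3 (y axis), in the authors' units. Filled points are the 46 genes with a repeated pooled summit. col-85 and col-138 stand far right with 56.5 and 50.6 in replicate 2, and col-184 stands highest with 47.4 in replicate 3.

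The 3 genes of the optimal list differed in where the peak lay. The col-85 peak (chrII:12494537-12494980, summit at 12494759) had a pooled signal of 93.5, with 56.5 in replicate 2 and 34.8 in replicate 3. Its summit was in an intron of col-85 and inside a tRNA-Ile gene (chrII:12494741-12494814), shown in capitals above, and signal for the tRNA gene and for col-85 cannot be told apart. The col-138 peak (chrIV:17182975-17183418, summit at 17183197) had a pooled signal of 91.7, with 50.6 in replicate 2 and 37.8 in replicate 3. Its summit was in codon 178 of the 281 codons of col-138, and it also lay inside C52D10.3, a second gene at that place. The col-184 peak (chrX:13469797-13470240, summit at 13470019) had a pooled signal of 86.5, with 38.0 in replicate 2 and 47.4 in replicate 3, and its summit was in codon 173 of 291. col-85 and col-138 were higher in rank in replicate 2, and col-184 in replicate 3. Beyond col-85, collagen summits were seldom close to small RNA genes: 4 of the 139 pooled summits were within 200 bp of a tRNA, snoRNA, snRNA or rRNA gene (2.88%), against 5.83% of all nuclear summits. These 4 were at col-72, col-85, col-99 and col-185.

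Of the 15 collagen genes with the highest repeated summits, 13 had that summit in a coding exon and 10 had it in the Gly-X-Y repeat. After the 3 genes above came col-181, with a pooled signal of 64.7, 28.6 in replicate 2 and 31.5 in replicate 3. col-33 had 62.7 pooled, 38.6 in replicate 2 and 24.0 in replicate 3. col-71 had 61.5 pooled, 39.3 in replicate 2 and at most 25.4 in replicate 3. The replicate 3 summit within 100 bp of its pooled one had 17.8. By rank within its list, col-181 was higher in replicate 3 (697) than in replicate 2 (1364), while col-33 and col-71 were higher in replicate 2. The repeated pooled summits of all of them lay in coding exons outside runs of at least 3 Gly-X-Y triplets. col-19, a collagen made in adults and used as a marker of the switch from larva to adult, had 60.9 pooled, and its highest values were 32.4 in replicate 2 and 37.9 in replicate 3. Its summit, at codon 196 of 289, also lay inside ZK1193.2. col-164 had 60.2 pooled, 28.0 in replicate 2 and 27.8 in replicate 3. col-185 had 59.7 pooled, 20.6 in replicate 2 and 42.6 in replicate 3 at a repeated summit 912 bp upstream of its start, inside a tRNA-Pro gene. The rest, col-44, col-132, col-156, col-139, col-49 and col-176, had pooled signals from 53.0 to 59.0, all in the Gly-X-Y repeat. Of the 15, 7 were on X, which holds 28 of the 166 collagen genes. Over all repeated summits X did not stand out among collagen genes. There 8 of the 28 had one (28.6%), against 27.7% of all 166. Of all protein-coding genes 17.1% on X and 9.63% overall had one.

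The highest collagen genes of one replicate were not always high in the other. In replicate 2, col-108 had 46.4 and no summit in replicate 3, while col-63 had 45.8 in replicate 2 and 23.8 in replicate 3. col-122 had 44.5 in replicate 2 and 27.9 in replicate 3. In replicate 3, col-9 and col-44 shared a summit of 46.4 that had no replicate 2 summit within 100 bp, and the pooled summit beside it had 60.3. col-46 had 40.3 in replicate 3 and no summit in replicate 2.

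The 10 collagen genes of the rule that are named for their mutant phenotypes had mostly weak summits. Further genes with such names were not part of the rule and are counted with other cuticle genes below. Among those, dpy-9 had a repeated pooled summit of 59.9. Of the 10 genes of the rule, 8 had a pooled summit, where 31.2% of all genes have one. A repeated one was found at 2 of the 10, dpy-13 and sqt-3, where 9.63% of all genes have one. sqt-3, whose mutants are short or squat, had the highest of these at 52.8 pooled, with 33.2 in replicate 2 and 19.8 in replicate 3, in codon 180 of 301. dpy-13, a collagen of the annuli (the ridges around the body), had 39.4 pooled, 22.3 in replicate 2 and 23.3 in replicate 3. A second repeated dpy-13 summit, 183 bp upstream of the start, had 33.7 pooled. lon-3, whose loss makes animals long, had 54.2 pooled, 28.5 in replicate 2 and 29.3 in replicate 3, but the replicate 3 summit was over 100 bp from the pooled one, and all lay inside ogdh-2 as well. dpy-7, a collagen of the furrows between annuli, had 41.1 pooled and 32.7 in replicate 3, while its replicate 2 summit of 16.5 lay elsewhere, in an intron. dpy-17 had 40.4 pooled, 23.1 in replicate 2 and 18.5 in replicate 3, the last over 100 bp from the pooled summit. bli-1, a collagen of the struts of the adult cuticle, had 33.8 pooled, 22.5 in replicate 2 and 17.4 in replicate 3. Its replicate 3 summit was over 100 bp from the pooled one, and every bli-1 summit was also inside dph-2. bli-2, the other strut collagen here, had a single summit, 16.9 in replicate 3. sqt-1 had 33.0 pooled and 19.5 in replicate 2, and dpy-10, another furrow collagen, had 30.7 in the pooled list alone. rol-6, whose mutants roll, had no summit in any list.

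Summits at collagen genes lay in coding sequence, well inside the gene. Of the 143 links between a pooled summit and a collagen gene, 116 were in a coding exon (81.1%, 73.7 to 87.2%), against 31.4% over all protein-coding genes. Upstream of the gene lay 20 of the 143 (13.99%), against 24.3% over all genes, and introns held 6 (4.20%), against 32.2%. In the replicate lists 78.4% (replicate 2) and 76.5% (replicate 3) of collagen links were in coding exons, against 31.1% and 30.7% over all genes. Collagen genes are compact, with coding exons making 39.0% of the bases searched, against 28.7% for all genes. Introns made 15.1% of the bases searched, against 40.2% for all genes, and bases outside the gene 40.3%, against 25.2%. Per 100 kb of coding sequence the pooled list had 71.1 summits in collagen genes and 11.3 over all genes, and for repeated summits the values were 25.8 and 2.66. The median pooled summit lay 659 bp downstream of the nearest transcript start (quartiles 401.5 and 924.5 bp), against 518 bp over all genes (quartiles −162.5 and 1759 bp). Within 200 bp of a start lay 4.20% of collagen links and 16.2% of all links. Between 200 and 1000 bp downstream lay 62.2% of collagen links and 23.4% of all links.

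**Figure D4:**
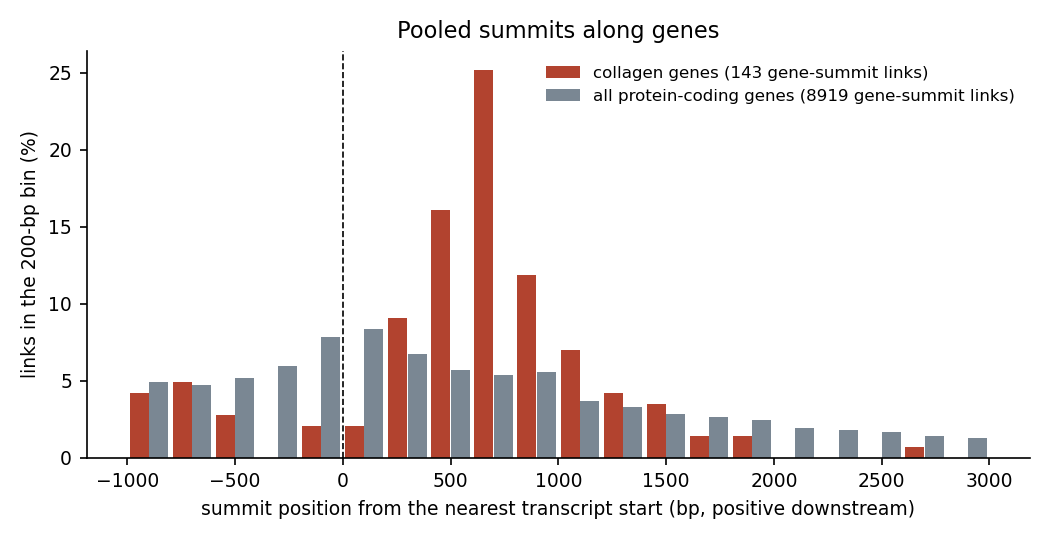
Percent of gene-summit links (y axis) by position from the nearest transcript start (x axis, bp, positive downstream) in bins of 200 bp, for 143 collagen links and all 8919 links of the pooled list. Links beyond 3000 bp are not drawn but count in the percent. The collagen bars are highest between 400 and 1000 bp downstream of the start.

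Within the coding sequence, summits fell mostly on the repeat. Of the 116 pooled summits in collagen coding exons, 88 lay in a run of at least 3 Gly-X-Y triplets (75.9%, 67.04 to 83.3%), where such runs made 48.3% of the coding bases of the 166 genes. The replicate lists gave 84 of 116 (72.4%, 63.3 to 80.3%) for replicate 2 and 83 of 104 (79.8%, 70.8 to 87.0%) for replicate 3. The median summit was at 59.9% of the length of the protein (quartiles 49.6 and 71.0%). The glycine codons printed in capitals above are mostly GGA, which made 80.2% of the 11012 glycine codons of these genes.

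GC content moved with the position. Windows of 101 bases around pooled collagen summits had a median GC of 59.4%, against 39.6% around all nuclear pooled summits and 45.5% around all those in coding exons. The coding sequences of collagen genes had a median of 55.1%, against 42.5% for all genes. Shares were therefore compared within classes of coding GC. Between 50 and 55% GC, 38 of 56 collagen genes had a pooled summit (67.9%), against 43.9% of 1434 other genes. At 55% or more, 56 of 84 did (66.7%), against 48.0% of 221 other genes. For a summit in a coding exon the shares at 55% or more were 64.3% of collagen genes and 26.7% of other genes. In the replicate 3 list the class at 55% or more had a summit anywhere at 58.3% of collagen genes and 52.9% of other genes, and in a coding exon at 54.8% and 25.3%. Between 45 and 50%, a pooled summit was found at 43.5% of 23 collagen genes and 39.9% of other genes. In a coding exon, pooled summits in that class were found at 39.1% of collagen genes and 17.1% of other genes. The classes use the GC of the whole coding sequence, not of the summit window, so the part of local GC in these differences was not tested. In each of 4 classes of gene length the collagen share of genes with a pooled summit was also higher, at 57.8% against 23.1% of all genes in the shortest class.

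**Figure D5:**
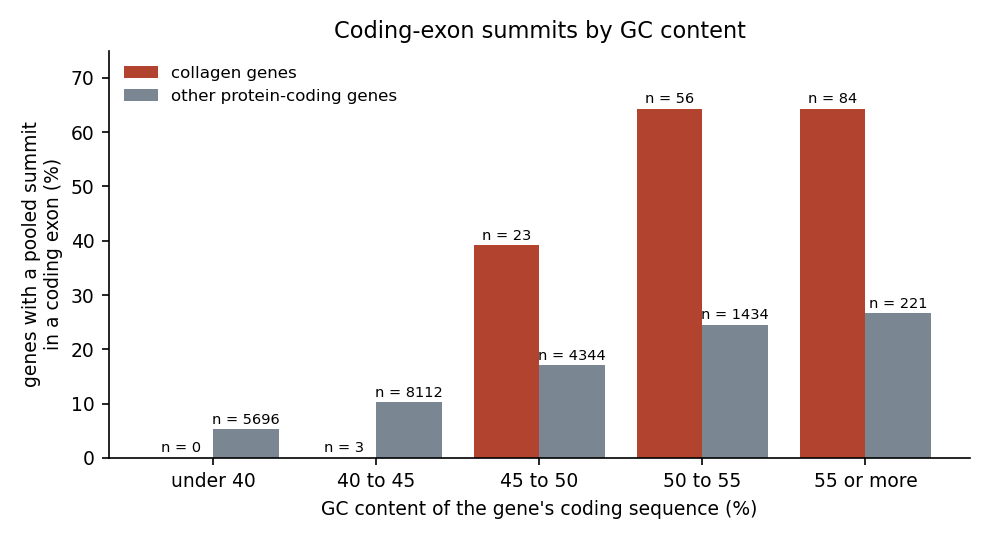
Percent of genes with a pooled summit in a coding exon (y axis) by the GC content of their coding sequence (x axis), for collagen genes and other protein-coding genes, with the number of genes above each bar. At 50 to 55% GC the bars are 64.3% for collagen genes and 24.5% for other genes.

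Collagen genes with a near-identical copy were nearly bare of summits. There were 26 whose protein was over 95% identical to that of another of the 166, and 1 of these had a pooled summit (3.85%, 0.0973 to 19.6%), against 103 of the other 140 (73.6%, 65.5 to 80.7%). None of the 26 had a repeated summit, against 46 of the 140 (32.9%). In the genes with a copy a median of 74.0% of words of 32 bases recurred elsewhere in the genome, against 0.258% in the other 140. The authors' handling of reads that map to several places is not given in the sources used here, and its part in this difference was not tested. The summits at these genes were weak: col-144 had 32.3 pooled and 25.5 in replicate 2, its copy col-10 had 22.7 in replicate 2, and col-93 and col-170 had 18.5 and 18.8 in replicate 3. col-7, an adult collagen with its copy col-62 beside it, had no summit in any list. Of the 37 collagen genes without any summit, 22 belonged to these 26. The distance to other collagen genes was not separated from the copies. Of the 55 genes under 10 kb from another collagen gene 24 had a pooled summit (43.6%, 30.3 to 57.7%), against 80 of the 111 others (72.1%, 62.8 to 80.2%).

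By chromosome, the collagen share of genes with a pooled summit was above that of all genes on each of the 6 nuclear chromosomes. It was 47.6% against 25.4% on I, 69.0% against 27.5% on II, 76.9% against 30.7% on III, 71.4% against 30.3% on IV, 42.4% against 29.4% on V and 71.4% against 47.3% on X. The 42 genes on IV, the largest group, had 30 with a pooled summit (55.4 to 84.3%). The 33 on V had 14 (25.5 to 60.8%), the lowest share. Many of the collagen genes with a near-identical copy are on V, and nearly all of those had no pooled summit. Shares by chromosome were not counted without them. On X, where all genes had summits most often, the collagen share was close to that on II, III and IV. In the replicate 3 list the collagen share on X was 60.7% against 58.6% of all genes there, and on V 45.5% against 40.5%, so those differences were small in that list.

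Some summits could belong to a neighbour. Of the 139 pooled collagen summits, 28 lay inside another gene that is no collagen gene, 4 reached 2 collagen genes at once, and for 124 the nearest protein-coding start was that of a collagen gene. Short words known from binding sites were counted in the 300 bases from 250 before to 50 after each gene's start, on both strands. The TATA box word TATAAA stood in 66.9% of collagen promoters, against 37.9% of all promoters. The nuclear receptor half-site AGGTCA stood in 13.3%, against 8.27% of all promoters, in 13.5% of the 104 genes with a pooled summit and 12.9% of the 62 without. The variant AGTTCA went the other way, in 16.9% of collagen promoters against 20.4% of all, and in 14.4% of those with a pooled summit and 21.0% of those without. The variant GGGTCA stood in 6.02%, against 4.81%. The E-box CACGTG stood in 1.81%, against 5.82%. Of the other words counted, TGATAA stood in 30.1%, against 30.2%, AGATAA in 27.1%, against 21.2%, and GAGAGA in 27.1%, against 21.8%. TTTCACTTT stood in 4.82%, against 2.57%, and GCGCAGGG in no collagen promoter, against 0.105%. Collagen promoters had a median GC of 38.0%, against 34.3% for all. A match is a description of the letters and says nothing of binding.

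Other genes of the cuticle and its making gave mixed shares. Of 46 other structural genes (dpy and cut families and the like), 20 had a pooled summit and 7 a repeated one, and of these cutl-18 (144.1) and cutl-23 (82.6) were in the optimal list. This list is mixed: 11 of its genes, with dpy, bli, rol and sqt names, themselves encode at least 30 Gly-X-Y triplets. Of those 11, 7 had a pooled summit (63.6%) and 3 a repeated one, so the list is no contrast of collagen with other genes. Of 14 genes for collagen processing, 5 had a pooled summit, with repeated ones at dpy-11, a thioredoxin-like protein needed for cuticle formation (40.8 pooled), and phy-3, a prolyl 4-hydroxylase (37.5 pooled). Of 10 regulators of the epidermis and the moult, 7 had a pooled summit and 2 a repeated one, nhr-23, a nuclear hormone receptor of the moulting cycle (47.2), and peb-1 (45.4). The pooled shares of the lists of 46, 14 and 10 genes were 43.5, 35.7 and 70.0%. Of the 166 collagen genes 62.7% had a pooled summit, and of all genes 31.2%. In the same order, 15.2, 14.3 and 20% of the 46, 14 and 10 genes had a repeated summit, against 9.63% of all genes. In the replicate 2 list 43.5, 50 and 90% had a summit, against 38.8% of all genes. In the replicate 3 list 45.7, 50 and 70% did, against 41.7% of all genes. An optimal summit was found at 4.35% of the 46 genes and 0.846% of all genes. With 14 and 10 genes the shares of those lists are imprecise.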

How the data were processed

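Peak lists were deposited for 2 biological replicates (numbers 2 and 3) of 1 group, so no comparison of treatments was possible. Per the deposited file descriptions, the authors made on ce11 a list per replicate, a list from pooled replicates and an optimal list from the irreproducible discovery rate, which measures how well ranked peaks recur. The deposited signal of a peak has no stated scaling, and the deposited −log10 of its q-value (column of q values) is the authors' own. The aligner, peak caller, versions and read filters are not given in the sources used here. The 4 lists on ce10 and the control were not used here. Files hold no counts, so no depth is known.

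Genes came from Ensembl release 115 for WBcel235, the same assembly as ce11, and sequence from the RefSeq FASTA of that assembly. Summits were linked to genes within 1000 bp of a transcript start or inside the gene, and compared between lists within 100 bp. A signal ranked peaks within its own list. Intervals are exact Clopper-Pearson 95% intervals. Identity between proteins came from global alignment with BLOSUM62. Genes were named where they had an optimal summit, were among the 15 highest repeated or the 5 highest of a replicate, carried no col name, were col-7 or col-19, or had a near-identical copy and a summit. The collagen genes, the lists and the rules were chosen with earlier results of these data known. GC classes and gene length were added after the values were seen. No test was run, since 1 group allows none over samples. Python 3.11.15, pandas 2.3.3, scipy 1.17.1 and biopython 1.88 were used, and the gene counts were checked on simulated summits.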

Additional observations from a re-analysis of the deposited data

How the results depend on the processing

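Of the alternatives for the pooled, replicate 2 and replicate 3 counts, all 10, 8 and 8 stayed within 1.5 times, at 82 to 112, 85 to 114 and 66 to 107 collagen genes, and the collagen share stayed above that of all genes. Leaving out replicate 2 or 3 gave 96 to 105 for the pooled count; these are the replicate lists themselves, so they add nothing new. For the optimal count of 3, the highest peaks of replicate 3 alone gave 4 (2.41%, against 0.916% of all genes) and those of replicate 2 alone 6 (3.61%, against 0.881%). The upper 50% of the optimal list gave 0 (0.360% of all genes), and a longer top of the pooled list gave 9 (5.42%, against 1.94%). For the repeated count of 46 (27.7%, against 9.63%), leaving out replicate 2 gave 69 (41.6%, against 20.1%) and leaving out replicate 3 gave 84 (50.6%, against 19.6%), so the ratio to all genes fell to 2.07 and 2.59, against 2.88 as reported. Summits within 50 bp gave 26 (15.7%, against 6.06% of all genes). The coding-exon share of 81.1% was 76.5 to 78.4% without either replicate. The coding-exon alternatives and leaving out genes with a near-identical copy were added after the data were seen, and the last moved the pooled share to 73.6%. No paired analysis was possible because there was 1 group. The files hold no depth, so weak summits cannot be judged against reads.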

Other observations

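The 3 basement membrane collagen genes had a summit in both replicate lists, against 23.6% of all genes, and a repeated pooled one, against 9.63%. They are among the longest genes, a class in which 46.8% of all genes had a pooled summit. Their repeated pooled summits had signals of 36.7 at emb-9 and 40.5 at let-2, which encode chains of type IV collagen, and 41.2 at cle-1, a type XVIII collagen. These proteins also hold Gly-X-Y repeats, and they sit in the sheets under epithelia, not in the cuticle.

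A set of 41 other protein-coding genes with at least 30 Gly-X-Y triplets was drawn up after the values were seen. Of these, 23 had a pooled summit (56.1%, 39.7 to 71.5%) and 9 a repeated one (22.0%, 10.6 to 37.6%), against 31.2% and 9.63% of all genes. The set holds 11 genes of the list of other cuticle structural genes, of which 7 had a pooled summit and 3 a repeated one, and 30 others, of which 16 had a pooled summit (53.3%) and 6 a repeated one. Of the 26 pooled summits in coding exons of the 41 genes, 14 lay in the repeat. The share of the repeat in the coding bases of these genes was not counted, so a preference for it cannot be read from this. The highest repeated were dpy-9 (59.9), pqn-75 (55.2) and nra-3 (54.7). The set includes emb-9, let-2 and cle-1.

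Among the 166 genes, col-17 and col-55 encode 0 and 20 Gly-X-Y triplets in the annotated protein. Neither had a pooled summit, as was so for 62 of the 166, and col-17 had a replicate 2 summit of 16.3. At the other end, col-99 and col-135 encode 132 and 199 triplets in 735 and 660 residues, where the median length was 304. The col-135 protein has no cysteine.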
